A study of Mus musculus with 10 samples.

Results

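The genes described here belong to the interferon response and to the antigen presentation pathway that interferon induces. They were taken from a list of 37 named genes in 4 roles, and each was represented by the probe set with the highest mean among the probe sets annotated to that gene alone. In this way 36 of the 37 genes were measured, out of 18820 genes in all: 6 of 6 sensors, 4 of 4 transcription factors, 21 of 22 effectors and 5 of 5 antigen presentation genes. Ifi44 was not analysed here.

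The samples were 10 mouse teratomas, growths holding many tissues that arise when pluripotent cells are put into an animal, each on its own 1-colour Affymetrix array. There were 4 P81S, 3 R167Q and 3 wildtype arrays, named for the form of human VHL cDNA put into the cells. All 10 tumours grew from Vhl-/- embryonic stem cells under the skin of female nu/nu mice, with J1 of strain Sv/129 given as the donor, so the loss of mouse Vhl is shared by every group, the wildtype arrays included. The labels call the P81S tumours apoptosis-resistant and the R167Q and wildtype tumours apoptotic. The 4 P81S arrays come from 2 clones with 2 arrays each, and which arrays belong to which clone is not given in the sources used here. The number of clones behind R167Q and wildtype, and the promoter that drives the cDNA, are not given in the sources used here. Nude mice lack a functional thymus and most T cells but keep macrophages, natural killer cells and other innate cells, so a tumour array holds RNA of donor and host cells together.

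VHL recognises hypoxia-inducible factors for a ubiquitin ligase, which leads to their breakdown. In the interferon response, sensors of foreign nucleic acid switch on interferon genes, and secreted interferon acts through cell-surface receptors on STAT and IRF transcription factors. These factors raise a large group of effector genes that block viral replication, along with the proteasome subunits, peptide transporters and class I molecules that display peptides at the cell surface. Undifferentiated embryonic stem cells are known for a weak interferon response, which matures as the cells differentiate.

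Values are the deposited log2 expression values, and a difference of 1 on this scale is a factor of 2. The median probe set of an array lay between 6.97 and 7.11 log2, and the depth of single probes over background is unknown. Correlations over single-gene probe sets, which are not independent replicates, were 0.969 to 0.990 among P81S arrays, 0.988 to 0.989 among R167Q arrays and 0.990 to 0.994 among wildtype arrays. The pluripotency markers, 10 of 10 measured, had summed linear levels of 3602 to 6923 in P81S, 12138 to 18315 in R167Q and 18475 to 26115 in wildtype arrays, and 9 of the 10 were lower in P81S than in wildtype. Neural, mesenchyme and muscle, and epithelial and endoderm markers had means over the 10 arrays above the 25th percentile of gene means, except 1 epithelial and endoderm marker. Of the neural markers 8 of 9 were higher in P81S than in wildtype. Over all genes 17.5% were lower and 17.2% higher in that comparison, by limma at an adjusted p under 0.05. Y-linked transcripts of the donor were higher in the P81S and R167Q arrays than in the wildtype arrays, with a mean of 3 genes of 8.42 to 9.28 log2 in P81S, 9.12 to 9.52 in R167Q and 4.26 to 4.70 in wildtype. The labels give all groups the same donor line. In bulk tumours, fewer cells of a type and less RNA per cell cannot be told apart.

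A promoter motif that the list did not use was found for 15 of the 36 genes. RefSeq promoter windows of build GRCm38.p6, each 300 bases from 250 before to 50 after a transcription start, were matched by gene number for 28 of them, in 34 windows. The core of the interferon-stimulated response element, a site bound by IRF factors, was searched on both strands as GAAA, any 2 bases and GAAA again. It was present in 15 of the 34 windows, against 3.44% of all 32851 windows. The gamma-activated site, searched as TTCNNNGAA, was present in 8 of the 34 windows against 8.3% of all, and in 1 of the 3 windows with both motifs the matches overlapped. The core of the hypoxia response element, searched as ACGTG on both strands, was in 3 of the 34 windows, those of Isg20, Oasl2 and Trim25, against 19.6% of all. A match describes letters and is not a measured binding site.

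Windows are printed for the 11 genes with a window among the 13 called between P81S and wildtype, whether or not they hold a match, so that both kinds can be read side by side. Zbp1 and Usp18 are the other called genes. Where a gene has more than 1 window, that of the lowest coordinate is shown. Capitals mark the matches to the response element core on either strand, and a window without capitals holds none. All are written 5′ to 3′ in the direction of transcription, and positions count from the transcription start as base 1, with the base before it as -1.
Ddx58, chr4:40239776-40240075, minus strand: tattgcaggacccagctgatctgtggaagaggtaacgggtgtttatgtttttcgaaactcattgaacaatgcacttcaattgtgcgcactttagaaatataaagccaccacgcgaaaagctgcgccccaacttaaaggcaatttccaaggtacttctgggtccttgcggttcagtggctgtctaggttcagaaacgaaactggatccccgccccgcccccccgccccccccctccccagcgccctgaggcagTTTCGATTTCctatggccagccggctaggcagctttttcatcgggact
Ifih1, chr2:62646206-62646505, minus strand: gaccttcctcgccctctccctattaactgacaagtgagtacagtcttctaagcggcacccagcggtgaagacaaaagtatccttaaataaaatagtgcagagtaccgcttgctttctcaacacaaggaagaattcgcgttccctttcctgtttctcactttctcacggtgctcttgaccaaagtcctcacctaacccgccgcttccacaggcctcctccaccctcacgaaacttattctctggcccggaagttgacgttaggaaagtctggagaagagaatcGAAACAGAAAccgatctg
Eif2ak2, chr17:78882523-78882822, minus strand: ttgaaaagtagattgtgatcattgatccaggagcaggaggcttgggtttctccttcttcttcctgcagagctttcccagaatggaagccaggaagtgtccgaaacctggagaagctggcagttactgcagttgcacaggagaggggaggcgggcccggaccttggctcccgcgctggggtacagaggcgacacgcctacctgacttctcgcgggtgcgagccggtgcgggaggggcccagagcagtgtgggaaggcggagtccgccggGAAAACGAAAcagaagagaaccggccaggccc
Irf1, chr11:53769764-53770063, plus strand: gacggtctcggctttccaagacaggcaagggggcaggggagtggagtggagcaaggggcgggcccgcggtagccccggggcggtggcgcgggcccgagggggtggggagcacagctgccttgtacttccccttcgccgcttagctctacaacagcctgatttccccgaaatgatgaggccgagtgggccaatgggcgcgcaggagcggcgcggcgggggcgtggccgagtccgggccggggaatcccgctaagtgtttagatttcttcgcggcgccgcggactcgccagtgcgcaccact
Ifit1, chr19:34640639-34640938, plus strand: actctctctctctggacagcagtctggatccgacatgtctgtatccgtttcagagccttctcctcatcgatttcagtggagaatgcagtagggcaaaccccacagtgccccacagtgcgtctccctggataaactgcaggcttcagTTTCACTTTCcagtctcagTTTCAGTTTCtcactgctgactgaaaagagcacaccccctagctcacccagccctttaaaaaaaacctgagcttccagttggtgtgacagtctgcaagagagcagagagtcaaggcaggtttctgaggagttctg
Oas1a, chr5:120907476-120907775, minus strand: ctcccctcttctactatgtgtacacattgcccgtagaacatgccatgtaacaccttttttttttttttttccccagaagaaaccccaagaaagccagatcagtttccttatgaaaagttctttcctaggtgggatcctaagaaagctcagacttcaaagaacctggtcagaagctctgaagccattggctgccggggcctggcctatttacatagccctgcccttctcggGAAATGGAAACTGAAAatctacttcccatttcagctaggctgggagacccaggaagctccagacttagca
Cxcl10, chr5:92348840-92349139, minus strand: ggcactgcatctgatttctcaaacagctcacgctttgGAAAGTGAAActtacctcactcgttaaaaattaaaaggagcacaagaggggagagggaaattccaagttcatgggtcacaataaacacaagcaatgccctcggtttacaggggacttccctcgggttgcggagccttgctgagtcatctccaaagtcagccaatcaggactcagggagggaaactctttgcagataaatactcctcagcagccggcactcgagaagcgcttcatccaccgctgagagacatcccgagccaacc
Ifi35, chr11:101448162-101448461, plus strand: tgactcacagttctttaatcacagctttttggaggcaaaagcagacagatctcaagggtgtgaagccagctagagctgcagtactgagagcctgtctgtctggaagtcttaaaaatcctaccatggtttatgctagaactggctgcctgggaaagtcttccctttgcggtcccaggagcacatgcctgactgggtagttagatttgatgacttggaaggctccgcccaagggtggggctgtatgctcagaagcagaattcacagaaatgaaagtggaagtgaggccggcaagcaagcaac
Ifit2, chr19:34550444-34550743, plus strand: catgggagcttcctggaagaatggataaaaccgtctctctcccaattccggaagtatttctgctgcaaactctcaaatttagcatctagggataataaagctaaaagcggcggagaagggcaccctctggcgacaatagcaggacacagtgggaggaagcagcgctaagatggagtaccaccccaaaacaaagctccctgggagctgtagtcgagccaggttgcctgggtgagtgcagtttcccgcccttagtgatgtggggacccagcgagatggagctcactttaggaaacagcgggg
Oasl2, chr5:114896684-114896983, plus strand: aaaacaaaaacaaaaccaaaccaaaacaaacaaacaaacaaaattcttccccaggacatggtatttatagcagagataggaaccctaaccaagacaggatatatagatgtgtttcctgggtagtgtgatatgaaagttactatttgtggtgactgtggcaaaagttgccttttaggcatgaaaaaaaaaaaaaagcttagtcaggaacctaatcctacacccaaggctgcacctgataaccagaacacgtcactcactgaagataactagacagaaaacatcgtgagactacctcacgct
Trim25, chr11:88999153-88999452, plus strand: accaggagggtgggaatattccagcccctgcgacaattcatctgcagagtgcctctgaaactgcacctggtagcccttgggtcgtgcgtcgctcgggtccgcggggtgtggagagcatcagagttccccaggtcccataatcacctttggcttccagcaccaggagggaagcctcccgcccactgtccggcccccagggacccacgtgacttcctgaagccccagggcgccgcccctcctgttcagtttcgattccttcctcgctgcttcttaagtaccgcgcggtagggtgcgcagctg
The response element core was in 6 of these 11 genes, beside 15 of all 28 genes with a window. It was in neither window of Irf1 or Ifit2 nor in the window of Ifi35, Oasl2 or Trim25. It lies just after the start in Ddx58 (first base 3), Eif2ak2 (19) and Ifih1 (33), close before it in Oas1a (-20 and -14), and further upstream in Ifit1 (-104 and -85) and Cxcl10 (-213). The gamma-activated site letters begin at -178 in Eif2ak2, -90 in Irf1, -98 in Oas1a, 8 in Ifi35 and -241 in Ifit2.

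P81S was first set against wildtype, the form without a substitution. Most of the sensors, the factor Irf1 and a part of the effectors were lower in P81S, while the chemokine gene Cxcl10 and the effector gene Ifit2 were higher and no antigen presentation gene passed the test. In limma's moderated test, with Benjamini-Hochberg adjustment over the 18820 genes, 11 of the 36 genes fell at an adjusted p under 0.05, where 17.5% of all genes fell, and 2 rose, where 17.2% of all genes rose. The other 23 did not pass. The median difference of the 36 genes was -0.41 log2, beside 0.01 for all genes, and 28 were lower and 8 higher in sign. By role, the median was -0.928 log2 for sensors, -0.347 for transcription factors, -0.425 for effectors and -0.383 for antigen presentation genes. The differences ran from -1.67 in Ddx58 to 1.87 in Cxcl10. The counts depended on single arrays and on the weighting of arrays. Of the 36 genes, 6 fell without wildtype replicate 2 and 23 fell with array weights. The number that rose was 0 without wildtype replicate 3, 1 without wildtype replicate 1 and 1 without wildtype replicate 2. Calls over all genes moved as well, from 6530 to 5199 without wildtype replicate 2 and to 8669 with array weights. They numbered 5073 without wildtype replicate 3 and 5606 without wildtype replicate 1.

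**Figure D1:**
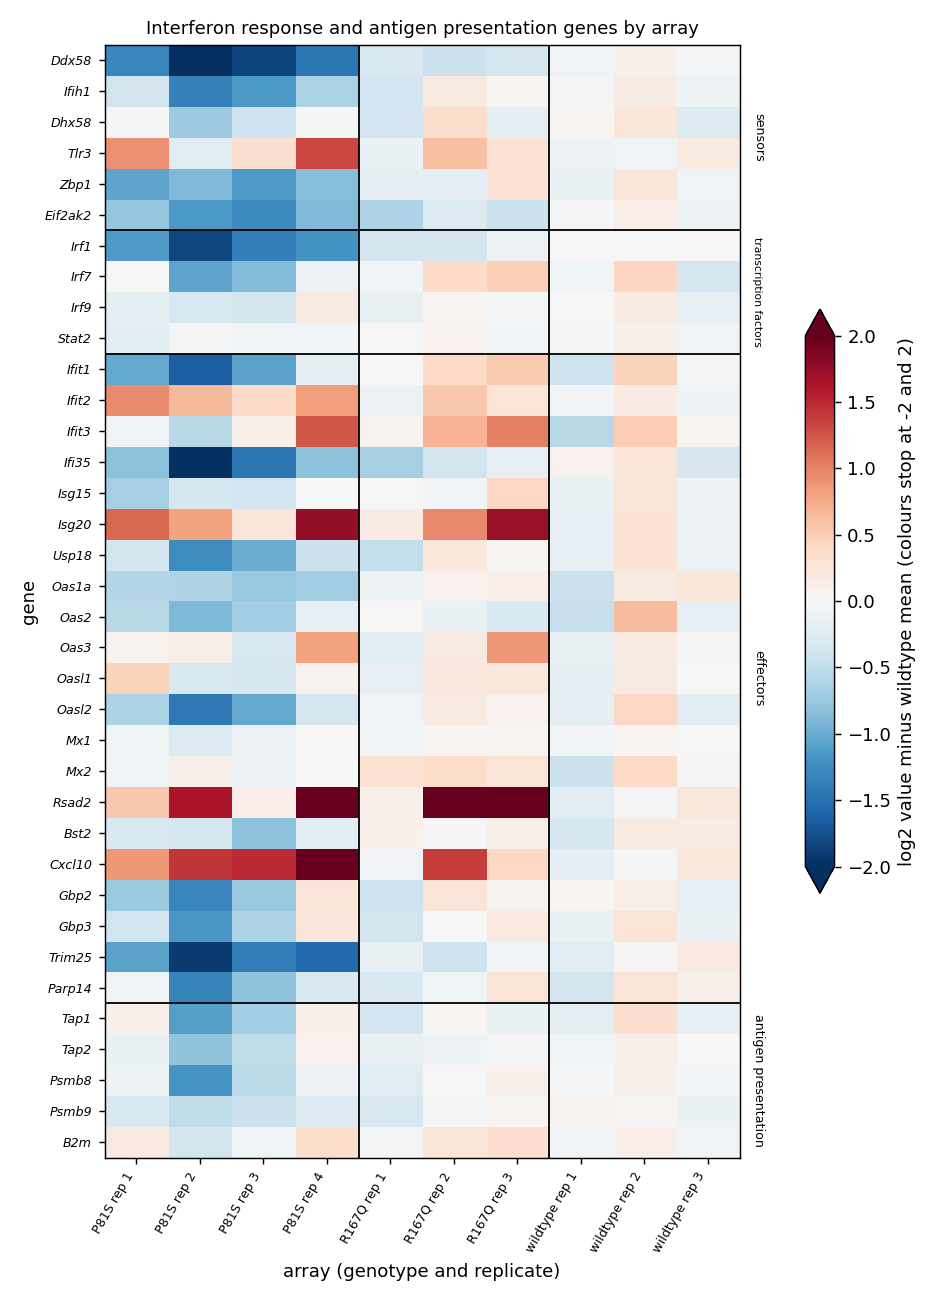
Each of the 36 genes (rows, ordered by role) in each of the 10 arrays (columns), as the log2 value minus the wildtype mean, with blue lower and red higher. Ddx58, Zbp1, Eif2ak2, Irf1, Ifi35 and Trim25 are blue in all 4 P81S arrays, Cxcl10 is red in all 4, and P81S replicates 2 and 3 are bluer than replicates 1 and 4.

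Among the sensors, 4 of 6 fell and none rose, where 17.5% of all genes fell and 17.2% rose. Ddx58 encodes RIG-I, the helicase that detects viral RNA with a free 5′ triphosphate. It read 8.58, 7.77, 8.04 and 8.44 log2 in the 4 P81S arrays (replicates 1 to 4, as in all such lists), 9.58, 9.44 and 9.52 in R167Q, and 9.80, 9.98 and 9.85 in wildtype. The P81S arrays were all lower than the 6 others by a clear gap, and the 3 genotypes did not overlap. Ddx58 was 3.18-fold lower in P81S than in wildtype (log2 -1.67 ± 0.18 SE, adjusted p = 7.86e-05).

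Ifih1, which encodes MDA5, the sensor of long double-stranded RNA, read 7.81, 6.83, 7.03 and 7.54 log2 in P81S, 7.79, 8.36 and 8.21 in R167Q, and 8.13, 8.32 and 8.07 in wildtype. P81S replicate 1 stood just above the lowest R167Q array, and all 4 P81S arrays were lower than all wildtype arrays. The fall was 1.83-fold (log2 -0.87 ± 0.24 SE, adjusted p = 0.0141), and it did not pass without wildtype replicate 2 (adjusted p = 0.0594). Zbp1, a sensor of Z-form nucleic acid that can trigger necroptosis, read 6.39, 6.56, 6.30 and 6.59 log2 in P81S, 7.25, 7.26 and 7.73 in R167Q, and 7.30, 7.68 and 7.35 in wildtype. The 4 P81S arrays lay close together and lower than the 6 others. Zbp1 was 1.97-fold lower in P81S than in wildtype (log2 -0.98 ± 0.17 SE, adjusted p = 0.00109).

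Eif2ak2 encodes PKR, the kinase that stops translation on binding double-stranded RNA. It read 7.50, 7.12, 7.02 and 7.38 log2 in P81S, 7.66, 7.997 and 7.84 in R167Q, and 8.24, 8.41 and 8.17 in wildtype. The 3 genotypes did not overlap, with R167Q between the others. The fall in P81S was 2.02-fold (log2 -1.02 ± 0.16 SE, adjusted p = 0.000549). Dhx58, which encodes the regulatory helicase LGP2, differed by -0.31 ± 0.23 log2 (adjusted p = 0.355). Tlr3, the endosomal receptor for double-stranded RNA, differed by 0.58 ± 0.32 log2 (adjusted p = 0.200), with 7.21 log2 in P81S replicate 2 and 7.78 to 8.79 in the other P81S arrays, against 7.36 to 7.63 in wildtype.

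Of the 4 transcription factors only Irf1 passed the test, and it fell, where 17.5% of all genes fell. Irf1, which drives genes of interferon gamma signalling and of class I antigen presentation, read 8.29, 7.61, 8.07 and 8.24 log2 in P81S, 9.07, 9.06 and 9.32 in R167Q, and 9.44, 9.44 and 9.42 in wildtype. The 3 genotypes did not overlap, and the wildtype arrays lay within an SD of 0.01 log2. Irf1 was 2.60-fold lower in P81S than in wildtype (log2 -1.38 ± 0.16 SE, adjusted p = 0.000125). A second Irf1 probe set, much dimmer at a mean of 5.65 log2, read 5.43 to 5.81 in P81S, 5.67 to 5.70 in R167Q and 5.27 to 5.90 in wildtype, with a difference of 0.10 log2. Averaging both sets gave -0.64 log2 (adjusted p = 0.00329).

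Irf7, the factor that amplifies interferon alpha genes, read 7.57, 6.51, 6.69 and 7.45 log2 in P81S, 7.52, 7.95 and 8.05 in R167Q, and 7.48, 7.996 and 7.23 in wildtype. P81S replicates 2 and 3 were the lowest arrays and replicates 1 and 4 lay among the wildtype arrays, with a difference of -0.51 ± 0.29 log2 (adjusted p = 0.202). Stat2 and Irf9, transcription factors of type I interferon signalling, differed by -0.09 ± 0.11 and -0.18 ± 0.15 log2 (adjusted p = 0.573 and 0.384). Stat2 spanned 8.28 to 8.45 log2 in P81S, 8.43 to 8.57 in R167Q and 8.42 to 8.58 in wildtype.

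**Figure D2:**
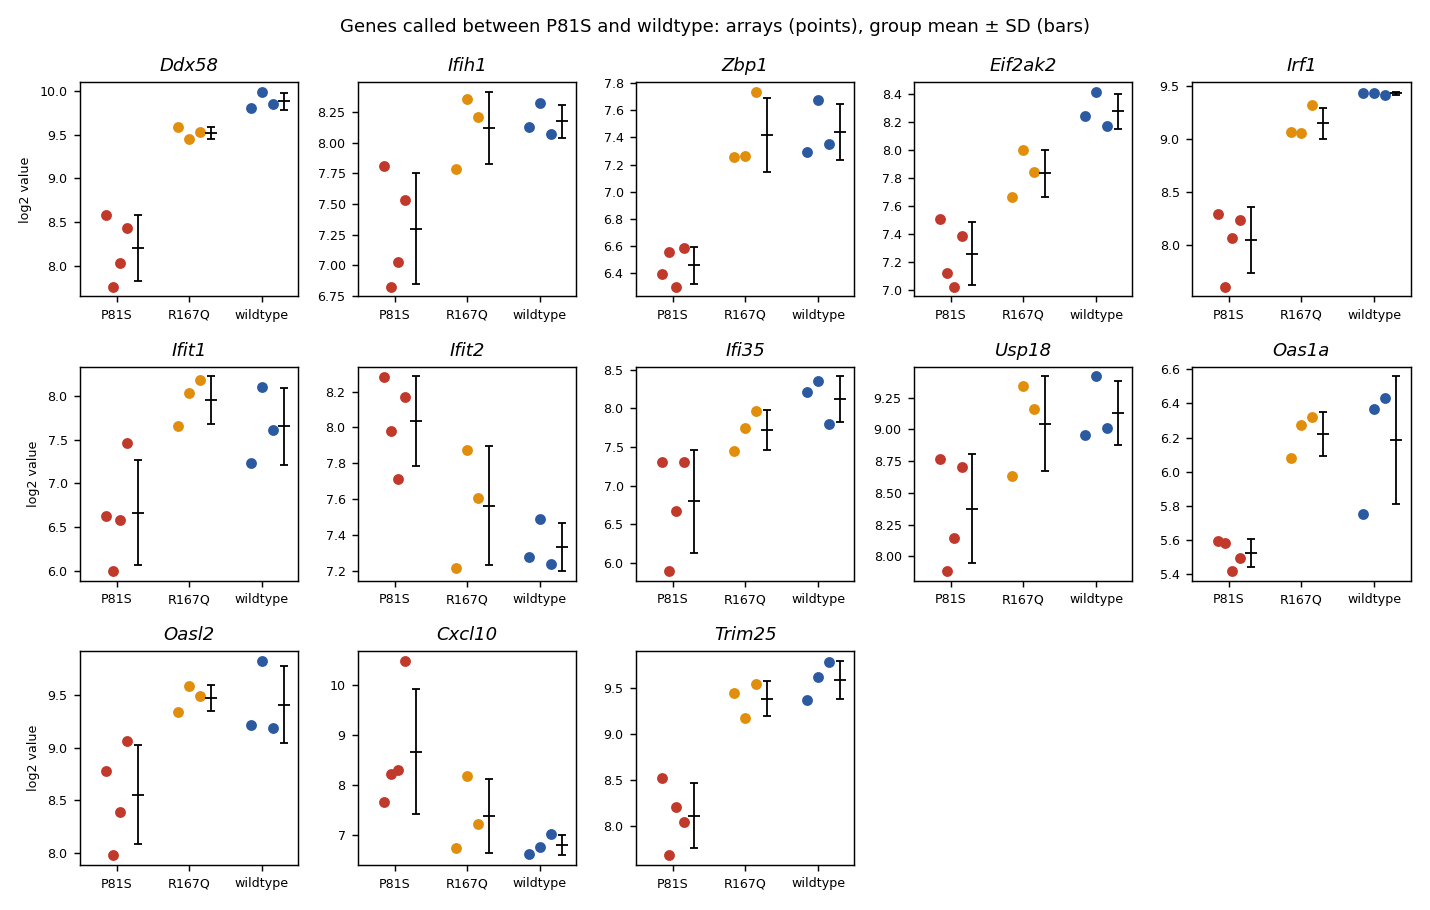
The log2 values of the 13 genes called between P81S and wildtype, with a point for each array and the mean ± SD (n = 4 P81S, 3 R167Q, 3 wildtype) beside it. Each panel has its own y axis. Apart from Ifit1, which overlaps, the P81S arrays lie lower than all wildtype arrays in the genes that fell. They lie higher in Cxcl10 and Ifit2. The genes were picked by this same comparison, so that separation is no further evidence of a difference.

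Among the 21 effectors 6 fell, 2 rose and 13 did not pass, where 17.5% of all genes fell and 17.2% rose. Trim25, a ubiquitin ligase that acts on RIG-I, read 8.52, 7.68, 8.21 and 8.04 log2 in P81S, 9.44, 9.17 and 9.54 in R167Q, and 9.37, 9.62 and 9.78 in wildtype. The P81S arrays were all lower than the 6 others, and the R167Q and wildtype arrays overlapped. Its fall was 2.79-fold (log2 -1.48 ± 0.19 SE, adjusted p = 0.000203). Ifi35, which encodes a leucine zipper protein of the cytoplasm, read 7.30, 5.90, 6.68 and 7.31 log2 in P81S, 7.45, 7.75 and 7.96 in R167Q, and 8.21, 8.36 and 7.79 in wildtype. P81S replicate 2 was the lowest array and all 4 P81S arrays lay under the 6 others. Ifi35 was 2.51-fold lower (log2 -1.33 ± 0.32 SE, adjusted p = 0.00748).

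Trim25, Ifi35, Irf1 and Dhx58 lie on chromosome 11. Over the 814 brighter genes of that chromosome, the median stood at -0.37 log2 in P81S replicate 1 and -0.33 in replicate 2, set against the mean of the R167Q and wildtype arrays, and at -0.01 and -0.02 in replicates 3 and 4. Without P81S replicates 1 and 2, the differences from wildtype were -1.47 log2 for Trim25 (adjusted p = 0.000183), -1.13 for Ifi35 (adjusted p = 0.00539) and -1.27 for Irf1 (adjusted p = 0.000142).

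The family of oligoadenylate synthetases, enzymes that make the activator of RNase L, did not move as one. Oas1a read 5.60, 5.58, 5.42 and 5.49 log2 in P81S, 6.08, 6.27 and 6.32 in R167Q, and 5.75, 6.36 and 6.43 in wildtype. The P81S arrays were the 4 lowest, and wildtype replicate 1 stood nearest to them. Oas1a was 1.58-fold lower (log2 -0.66 ± 0.17 SE, adjusted p = 0.0120), and without wildtype replicate 2 or 3 it did not pass (adjusted p = 0.0565 and 0.0590). Its P81S mean of 5.52 log2 was under the 25th percentile of gene means, 5.92 log2. Oasl2, an oligoadenylate synthetase-like protein, read 8.78, 7.98, 8.39 and 9.06 log2 in P81S, 9.34, 9.58 and 9.49 in R167Q, and 9.22, 9.83 and 9.18 in wildtype. It was 1.81-fold lower (log2 -0.85 ± 0.24 SE, adjusted p = 0.0182), and did not pass without wildtype replicate 2 (adjusted p = 0.0912). Oas2, Oas3 and Oasl1 differed by -0.58 ± 0.25, 0.17 ± 0.29 and -0.04 ± 0.21 log2 (adjusted p = 0.107, 0.710 and 0.912). Probes of such closely related genes, here the Oas, Ifit, Mx and Gbp families, may share signal. A brighter set annotated to both Oas1a and Oas1g, at a mean of 7.15 log2, was used only in an alternative fit.

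The Ifit genes went in different directions although they lie side by side on chromosome 19. The product of Ifit1 binds viral RNA at its 5′ end. Ifit1 read 6.63, 6.00, 6.58 and 7.46 log2 in P81S, 7.65, 8.02 and 8.17 in R167Q, and 7.24, 8.10 and 7.61 in wildtype. P81S replicate 4 lay among the wildtype arrays and the other 3 under them. Ifit1 was 1.97-fold lower (log2 -0.98 ± 0.31 SE, adjusted p = 0.0313), and did not pass without P81S replicate 2 or 3 or wildtype replicate 2 or 3, with adjusted p of 0.0659, 0.0664, 0.138 and 0.0785.

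Ifit2 read 8.28, 7.98, 7.71 and 8.17 log2 in P81S, 7.21, 7.87 and 7.60 in R167Q, and 7.28, 7.49 and 7.24 in wildtype. The P81S arrays were all higher than the wildtype arrays, with R167Q spread over both. Ifit2 rose 1.63-fold in P81S (log2 0.70 ± 0.19 SE, adjusted p = 0.0135), and did not pass without wildtype replicate 3 (adjusted p = 0.0545). Ifit3 spanned 7.73 to 9.52 log2 in P81S, 8.35 to 9.28 in R167Q and 7.71 to 8.78 in wildtype, and differed by 0.18 ± 0.40 log2 (adjusted p = 0.778).

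Usp18, the protease that removes ISG15 from proteins and dampens the type I receptor, read 8.77, 7.89, 8.14 and 8.70 log2 in P81S, 8.63, 9.35 and 9.16 in R167Q, and 8.96, 9.42 and 9.01 in wildtype. All 4 P81S arrays lay under the wildtype arrays, replicates 1 and 4 by little. Its fall of 1.69-fold (log2 -0.75 ± 0.24 SE, adjusted p = 0.0333) did not pass in 5 of the 10 fits that left out 1 array, those without P81S replicate 2 or 3 (adjusted p = 0.0718 and 0.0831) or wildtype replicate 1, 2 or 3 (0.0526, 0.137 and 0.0657). Isg15, the ubiquitin-like modifier itself, was dim, with 4.68 to 5.36 log2 in P81S, 5.29 to 5.76 in R167Q and 5.21 to 5.59 in wildtype. It differed by -0.34 ± 0.18 log2 (adjusted p = 0.188).

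Cxcl10, a chemokine that draws activated T cells and natural killer cells, was the gene of the list with the largest rise. It read 7.66, 8.23, 8.29 and 10.49 log2 in P81S, 6.73, 8.19 and 7.22 in R167Q, and 6.62, 6.76 and 7.01 in wildtype. P81S replicate 4 was far above the other arrays, and the other 3 P81S arrays still lay above all wildtype arrays. Against wildtype, Cxcl10 rose 3.65-fold in P81S (log2 1.87 ± 0.57 SE, adjusted p = 0.0253). It was 2.40-fold higher without P81S replicate 4 (adjusted p = 0.0150), and did not pass without wildtype replicate 1, 2 or 3 (adjusted p = 0.0783, 0.0716 and 0.0587).

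A pair of other effectors varied widely within the mutant groups. Rsad2, which encodes the antiviral enzyme viperin, read 7.46, 8.56, 7.05 and 9.52 log2 in P81S, 7.02, 9.04 and 9.84 in R167Q, and 6.72, 6.90 and 7.16 in wildtype. P81S replicates 2 and 4 and R167Q replicates 2 and 3 stood well above all other arrays, and the difference of 1.22 ± 0.66 log2 between P81S and wildtype did not pass (adjusted p = 0.188). Isg20, a 3′ to 5′ exonuclease of single-stranded RNA, read 10.12, 9.78, 9.23 and 10.73 log2 in P81S, 9.14, 9.93 and 10.70 in R167Q, and 8.80, 9.26 and 8.85 in wildtype. Its difference of 0.99 ± 0.38 log2 did not pass (adjusted p = 0.0635).

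Gbp2 and Gbp3, guanylate-binding GTPases that attack pathogen membranes, differed by -0.65 ± 0.31 and -0.48 ± 0.29 log2 (adjusted p = 0.130 and 0.229). In both, P81S replicate 2 was the lowest of the 10 arrays and P81S replicate 4 lay within or above the wildtype range. Parp14, an ADP-ribosyltransferase, differed by -0.63 ± 0.29 log2 (adjusted p = 0.116), and Bst2, which encodes the virus-tethering protein tetherin, by -0.43 ± 0.18 (adjusted p = 0.0984). Mx1 and Mx2, dynamin-like antiviral GTPases, were dim, with means from 5.12 to 6.02 log2 in the 3 groups, and differed by -0.12 ± 0.11 and -0.02 ± 0.18 log2 (adjusted p = 0.445 and 0.935).

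None of the 5 antigen presentation genes passed by limma, with 0 higher and 1, Psmb9, lower at an unadjusted p under 0.05. At that threshold 4021 of all 18820 genes were higher and 4080 lower. Psmb9 and Psmb8, catalytic subunits of the immunoproteasome, differed by -0.38 ± 0.14 and -0.49 ± 0.24 log2 (adjusted p = 0.0570 and 0.150). Psmb9 read 7.10, 6.91, 6.99 and 7.16 log2 in P81S, 7.10, 7.39 and 7.47 in R167Q, and 7.50, 7.48 and 7.29 in wildtype, so the P81S arrays lay under all wildtype arrays. Those of Psmb8 did too, with 7.17, 6.10, 6.74 and 7.15 log2 in P81S, 7.02, 7.27 and 7.37 in R167Q, and 7.23, 7.37 and 7.21 in wildtype. How many of all genes separate in this way between P81S and wildtype was not counted, so the separation has no background here. Tap1 and Tap2, the subunits of the peptide transporter, differed by -0.40 ± 0.29 and -0.34 ± 0.20 log2 (adjusted p = 0.336 and 0.210). B2m, the light chain of class I molecules, was bright in every array, at 11.99, 11.42, 11.71 and 12.14 log2 in P81S, 11.75, 12.04 and 12.13 in R167Q, and 11.73, 11.93 and 11.72 in wildtype. The groups overlapped fully, with a difference of 0.02 ± 0.16 log2 (adjusted p = 0.932).

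**Figure D3:**
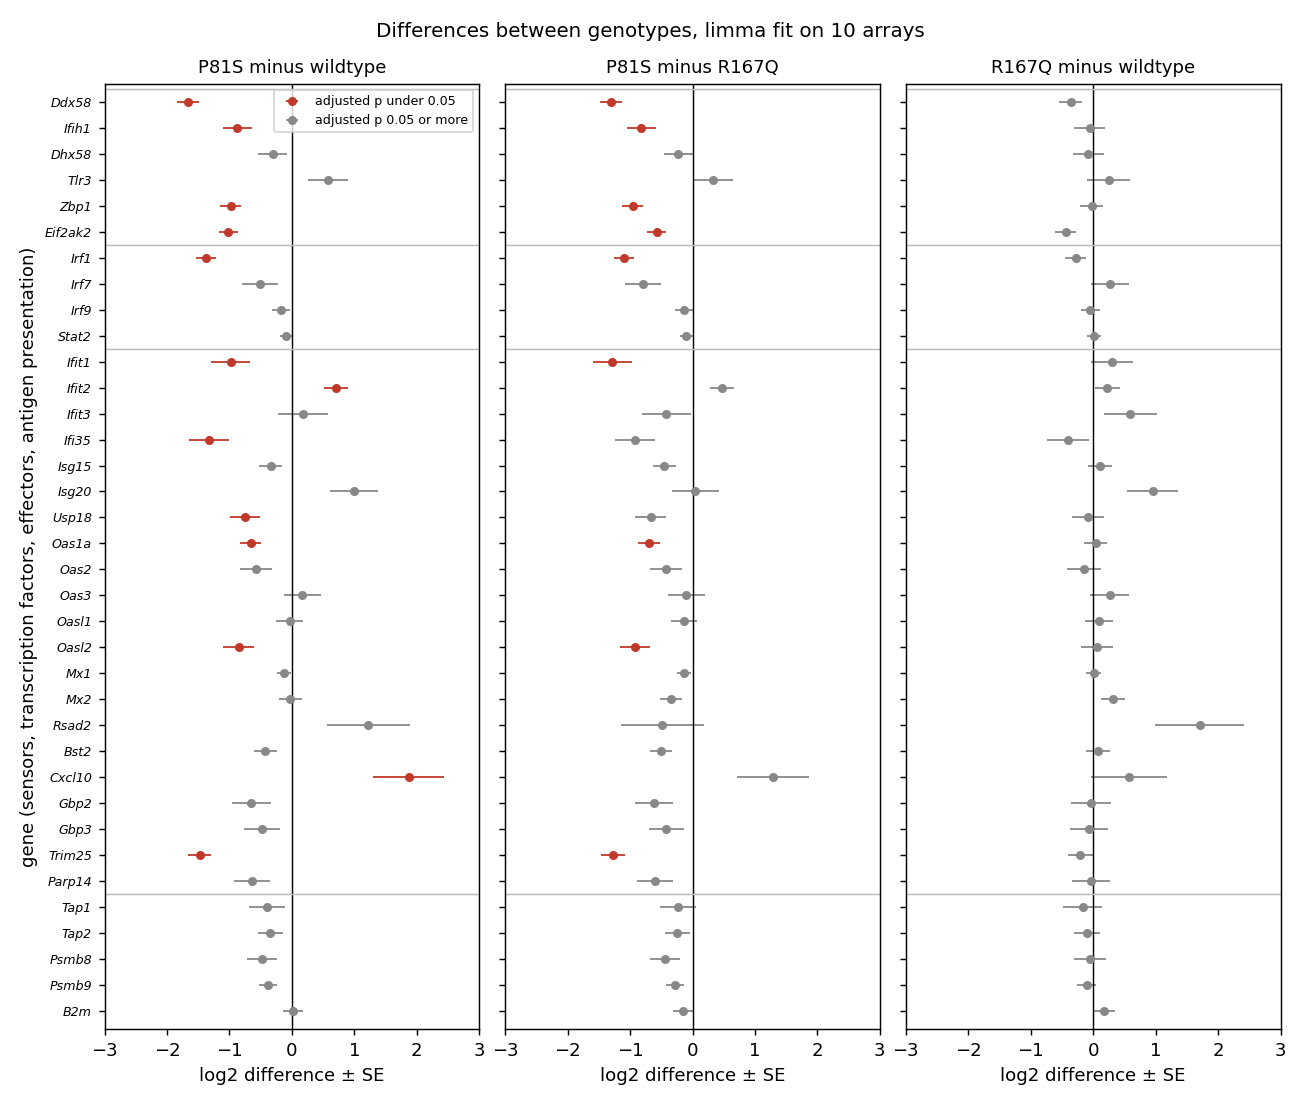
Log2 difference ± SE of the 36 genes in each comparison, with genes at an adjusted p under 0.05 in red. In P81S minus wildtype 11 genes are called lower and 2 higher, in P81S minus R167Q 9 are called lower, and in R167Q minus wildtype no gene is called.

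The comparison of P81S with R167Q sets the mutants against each other and shares its P81S arrays with the comparison above. The sensors Ddx58, Ifih1, Zbp1 and Eif2ak2 were lower in P81S, as were Irf1, Trim25, Ifit1, Oasl2 and Oas1a. Of the 36 genes 9 fell, where 10.1% of all genes fell, and 0 rose by limma, where 12.4% of all genes rose. At an unadjusted p under 0.05 by limma, 14 were lower and 2 higher. At that threshold 2988 of all 18820 genes were lower and 3443 higher. The median difference was -0.43 log2, beside 0.02 for all genes. Ddx58 was 2.48-fold lower (log2 -1.31 ± 0.18 SE, adjusted p = 0.000956), Trim25 2.41-fold (-1.27 ± 0.19, adjusted p = 0.00136), Irf1 2.14-fold (-1.10 ± 0.16, adjusted p = 0.00129) and Zbp1 1.94-fold (-0.96 ± 0.17, adjusted p = 0.00283). Their P81S arrays lay under all R167Q arrays. The count of genes that fell was 4 without R167Q replicate 3 and 14 with array weights. Calls over all genes, in either direction, numbered 2877 and 5960 in those fits, against 4234 in the main fit.

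Ifit1 was 2.43-fold lower than in R167Q (log2 -1.28 ± 0.31 SE, adjusted p = 0.0139) and Oas1a 1.62-fold (-0.70 ± 0.17, adjusted p = 0.0146). Neither passed without R167Q replicate 3 (adjusted p = 0.0599 and 0.0589). Ifih1 fell 1.76-fold (adjusted p = 0.0290), Eif2ak2 1.49-fold (adjusted p = 0.0217) and Oasl2 1.89-fold (adjusted p = 0.0198). These 3 also depended on single arrays. Ifih1 did not pass without P81S replicate 2 or 3 or R167Q replicate 2 or 3 (adjusted p = 0.0580, 0.0765, 0.102 and 0.0963), and Eif2ak2 without P81S replicate 3 or R167Q replicate 2 or 3 (adjusted p = 0.0606, 0.0811 and 0.0669). Oasl2 did not pass without P81S replicate 3 or R167Q replicate 1, 2 or 3 (adjusted p = 0.0519, 0.0514, 0.0621 and 0.0638). Cxcl10 and Ifit2 differed by 1.29 ± 0.57 and 0.47 ± 0.19 log2 (adjusted p = 0.136 and 0.0984), and Ifi35 and Usp18 by -0.92 ± 0.32 and -0.67 ± 0.24 (adjusted p = 0.0597 and 0.0736).

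R167Q was also set against wildtype, with the wildtype arrays shared with the first comparison. None of the 36 genes passed by limma, where 0.0638% of all genes rose and 0.0266% fell. At an unadjusted p under 0.05 by limma, 2 were higher (Rsad2 and Isg20) and 1 lower (Eif2ak2). At that threshold 740 of all 18820 genes were higher and 1092 lower. The median difference was -0.01 log2, beside -0.02 for all genes, with 18 genes lower and 18 higher in sign. Differences ran from -0.44 ± 0.17 log2 in Eif2ak2 (adjusted p = 0.442) to 1.71 ± 0.71 in Rsad2 (adjusted p = 0.488). In 3 genes, Ddx58, Eif2ak2 and Irf1, all R167Q arrays lay under all wildtype arrays, which held for 12.4% of all genes. Ddx58 and Irf1 differed by -0.36 ± 0.19 and -0.28 ± 0.17 log2 between R167Q and wildtype (adjusted p = 0.576 and 0.639).

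Within P81S the arrays differed from each other in this gene group more than genes did in general. The median SD of the 36 genes was 0.38 log2 in P81S, 0.24 in R167Q and 0.21 in wildtype, beside 0.20, 0.16 and 0.15 for all genes. P81S replicate 2 held the lowest P81S value in 22 of the 36 genes, against 22.6% of all genes, and P81S replicate 4 the highest in 22, against 26.9% of all genes. Set against the wildtype mean, the median of the 36 genes was -0.20, -0.77, -0.57 and -0.04 log2 in P81S replicates 1 to 4, while that of all genes lay between -0.02 and 0.02 in these arrays. In R167Q it was -0.15, 0.09 and 0.11 log2, and in the wildtype arrays themselves -0.13, 0.18 and -0.07.

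Macrophage markers were also lower in P81S replicates 2 and 3 than in replicates 1 and 4. Their mean, over 14 of 14 genes measured, was 8.91, 8.31, 8.31 and 8.89 log2 in the P81S arrays, 8.46, 9.003 and 9.03 in R167Q, and 8.44, 8.67 and 8.28 in wildtype. Their summed linear level was 8410 to 11961 in P81S, 9807 to 14429 in R167Q and 7667 to 10732 in wildtype. The antigen presentation mean was 8.23, 7.49, 7.83 and 8.31 log2 in the same 4 arrays. Between P81S and wildtype 0 of the 14 markers passed by limma, with 2 higher and 0 lower at an unadjusted p under 0.05. At that threshold 4021 of all 18820 genes were higher and 4080 lower. Only Cd163 lay under the 25th percentile of gene means, 5.92 log2, and the part of macrophage RNA in these values was not tested. Markers of other tissues differed between the P81S arrays as well. Endothelial markers averaged 9.36, 7.198, 8.28 and 8.40 log2 in P81S, 8.61, 8.26 and 8.80 in R167Q, and 7.80, 7.57 and 8.59 in wildtype. Mesenchyme and muscle markers averaged 9.76, 8.08, 9.14 and 9.04 log2 in P81S, 9.19, 9.13 and 9.01 in R167Q, and 8.93, 8.29 and 8.67 in wildtype. P81S replicate 2 was the lowest P81S array in both of these lists and replicate 1 the highest. Epithelial and endoderm markers averaged 9.69, 7.63, 7.94 and 7.10 log2 in P81S, with replicate 4 lowest, 8.47, 7.98 and 8.23 in R167Q, and 8.28, 8.40 and 8.43 in wildtype. The part of these tissues was not tested.

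Markers of other blood cells were mostly dim. That percentile was above 11 of 12 lymphocyte and natural killer markers, among them Cd3e, Cd8a, Cd79a and Ncr1, 7 of 8 neutrophil markers and 5 of 9 dendritic cell markers. Summed linear levels of the lymphocyte and natural killer markers were 404 to 445 in P81S, 433 to 510 in R167Q and 435 to 523 in wildtype. Those of the neutrophil markers were 283 to 506, 348 to 428 and 339 to 594 in the same groups, and those of the dendritic cell markers 493 to 717, 515 to 631 and 535 to 557. In each list 1 marker was lower in P81S than in wildtype and 0 were higher, where 17.5% of all genes fell and 17.2% rose. The pluripotency markers, lower in P81S in the sums given above, had means of 7.94, 8.39, 7.81 and 6.68 log2 in the P81S arrays, 10.08, 9.42 and 10.31 in R167Q and 10.22, 10.26 and 10.88 in wildtype. Within P81S, replicate 2 had the highest pluripotency mean and replicate 4 the lowest. The part of pluripotent or other cells in the values of the 36 genes was not tested.

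**Figure D4:**
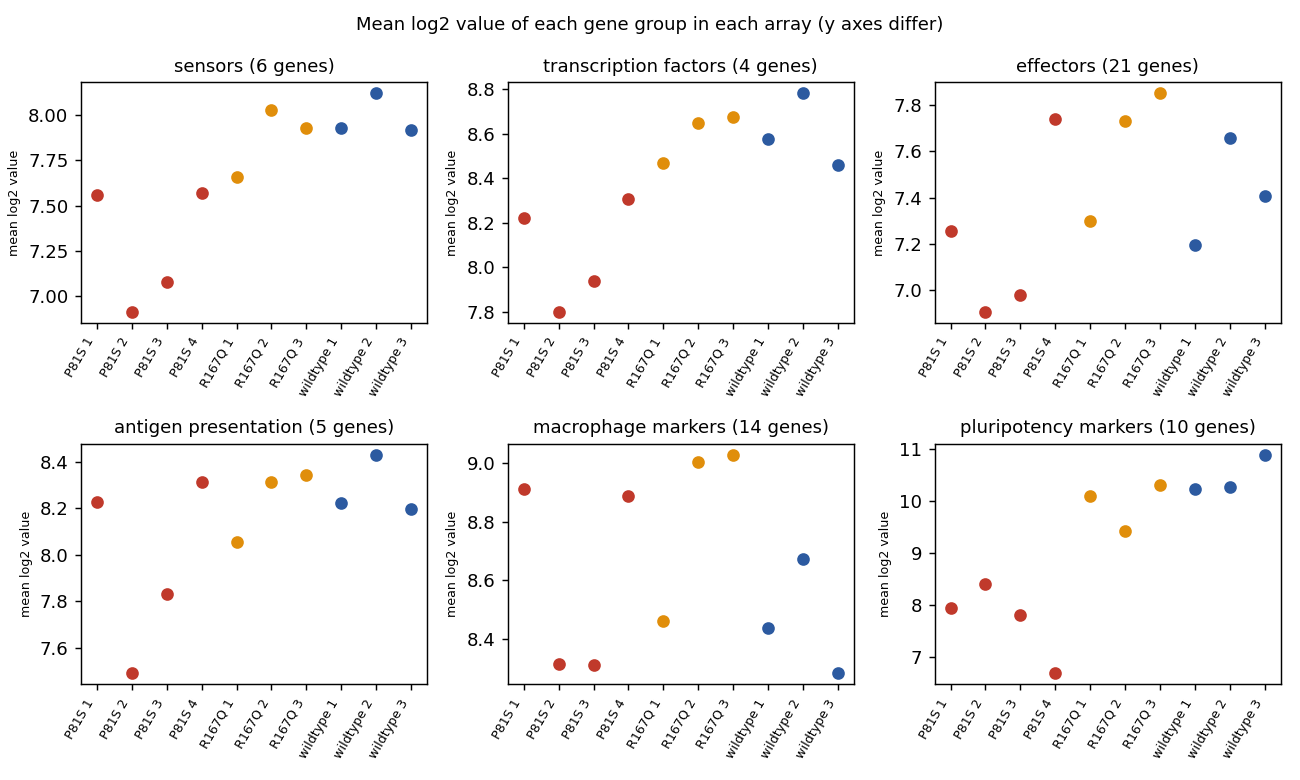
Mean log2 value per array of the 4 roles, the macrophage markers and the pluripotency markers (points, 1 per array; y axes differ). Sensor and transcription factor means are lower in all 4 P81S arrays than in the other 6, effector and antigen presentation means overlap, and macrophage means are lowest in P81S replicates 2 and 3 and wildtype replicate 3.

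Other genes of the pathway were taken from lists outside the 36 genes, and their counts in P81S against wildtype stand beside the 17.2% of all genes that rose and the 17.5% that fell. The interferon genes themselves were dim: 10 of the 11 measured, Ifnb1 and Ifng among them, lay under the 25th percentile of gene means. By limma 0 passed in any comparison, with 1 higher and 0 lower at an unadjusted p under 0.05 in P81S against wildtype. At that threshold 4021 of all 18820 genes were higher and 4080 lower. The type I receptor genes Ifnar1 and Ifnar2 differed by -0.10 ± 0.09 and -0.03 ± 0.13 log2 between P81S and wildtype (adjusted p = 0.475 and 0.884). Of 19 receptor and signalling genes 3 rose and 3 fell, shares near those of all genes. Ptpn2, a phosphatase that turns off JAK and STAT proteins, was 1.89-fold lower (adjusted p = 0.000113). Tyk2, a kinase bound to IFNAR1, was 1.54-fold lower (adjusted p = 0.00365), and Irf2, an antagonist of IRF1, was 1.47-fold higher (adjusted p = 0.00547). Irf2 lies on chromosome 8, as do Tlr3 and Bst2. The median of the 518 brighter genes of that chromosome stood at 0.14 to 0.20 log2 in the P81S arrays. As for chromosome 11, it is set against the mean of the R167Q and wildtype arrays.

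Of 15 other sensors and adaptors 2 rose and 3 fell, again near the shares of all genes. Aim2, the inflammasome sensor of cytosolic DNA, read 6.94, 6.77, 6.90 and 7.07 log2 in P81S, 8.22, 8.22 and 8.23 in R167Q, and 8.82, 9.18 and 9.39 in wildtype. The 3 genotypes did not overlap, and Aim2 was 4.63-fold lower in P81S than in wildtype (log2 -2.21 ± 0.15 SE, adjusted p = 1.16e-05). Adar, an editor of double-stranded RNA that restrains MDA5, rose 1.42-fold (adjusted p = 0.00566), and Tbk1, the kinase that activates IRF3, fell 1.29-fold (adjusted p = 0.0311).

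Of 34 other interferon-induced genes 13 fell and 2, Cmpk2 and Trafd1, rose in P81S against wildtype, with a median of -0.40 log2 beside 0.01 for all genes, where 17.5% of all genes fell and 17.2% rose. Phf11d read 6.60, 6.54, 6.05 and 5.98 log2 in P81S, 8.83, 8.19 and 9.05 in R167Q, and 8.85, 9.11 and 9.65 in wildtype. It was 7.52-fold lower in P81S than in wildtype (log2 -2.91 ± 0.26 SE, adjusted p = 3.63e-05), and its P81S arrays were all lower than the other 6. Parp12, an ADP-ribosyltransferase with antiviral activity, was 2.60-fold lower (adjusted p = 6.35e-05), and Pml, the scaffold of nuclear bodies, 2.30-fold lower (adjusted p = 0.000256). Of the 22 other antigen presentation genes 3 rose, 3 fell and 16 did not pass, while 17.2% of all genes rose and 17.5% fell. H2-DMa, a peptide exchange factor of class II molecules, rose 1.96-fold (adjusted p = 0.00253) and the chaperone gene Calr 1.29-fold (adjusted p = 0.000976), and Psme2, a subunit of the proteasome activator PA28, fell 1.45-fold (adjusted p = 0.00397). The class I heavy chain gene H2-K1 differed by 0.00 ± 0.25 log2 (adjusted p = 0.998), and H2-D1 was not analysed here.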

How the data were processed

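The deposited table held 1 log2 expression value for each of 35556 probe sets and 10 arrays, and the authors' processing notes name RMA and Partek with no version or role, per the labels. RMA ordinarily sets all arrays to 1 distribution, which removes changes in total RNA; whether that was done is not given in the sources used here. RNA came from frozen tumour, primed with oligo(dT) and biotin-labelled in the labels' protocols.

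Gene names came from GEO's annotation of the platform: 21218 had 1 gene, 1881 several and 12457 none listed. Only the first class was tested, apart from the set of Oas1a and Oas1g in an alternative fit. Entrez numbers were matched for 21185 of that class in a RefSeq table of GRCm38.p6, and symbols were unchanged by that match. The brightest probe set stood for each of 18820 genes. All 10 arrays entered 1 limma 3.58.1 model (R 4.3.3, statmod 1.5.0) with 3 group means and a variance trend, with 7 residual and 3.85 prior degrees of freedom. Tests were two-sided, p-values were adjusted by Benjamini-Hochberg over all 18820 genes, with calls made at an adjusted p under 0.05. The labels call the arrays biological replicates but do not say whether tumours shared a culture or a mouse, and both flanks were injected, so p-values measure the spread between these tumours only.

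The genes and lists were chosen with earlier results of these data known. All 36 measured genes are accounted for, and of the related lists Ifnar1, Ifnar2, H2-K1, H2-D1 and, in each list, up to 3 called genes with the smallest p are named; Cmpk2 and Trafd1, Cd163 and the dim markers are named to complete counts, after their values were seen. Same-numbered arrays of different groups did not deviate together, with correlations of deviations from -0.28 to 0.21. The alternatives concerned normalization, chromosome shifts, dim genes, the probe set per gene, the variance model, the arrays in the fit, weights for arrays, a block for the replicate number and a random block for the unlabelled P81S clones.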

Additional observations from a re-analysis of the deposited data

How the results depend on the processing

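Of the 28 alternatives run for each comparison, Ddx58, Zbp1 and Trim25 stayed lower in P81S under every one, against wildtype and against R167Q, as did Eif2ak2 and Ifi35 against wildtype. Not all alternatives could move these genes. Each has 1 probe set, so the alternatives on the probe set left their values unchanged. Leaving out an array of the group not compared left the difference unchanged, and only its p-value could move. The random blocks for P81S clones, with replicate 1 paired with 2, 3 or 4, had correlations within blocks of 0.047, -0.2295 and -0.029. Calls over all genes between P81S and wildtype then numbered 6437, 7081 and 6608. At such correlations these fits made little or no allowance for shared clones. Irf1 stayed lower in 27 of 28; the exception took its dimmer probe set, where the difference from wildtype was 0.10 (adjusted p = 0.683) and that from R167Q was 0.00. The number of the 36 genes called lower in P81S against wildtype was 23 with array weights, and 6 to 13 when single arrays were left out, lowest without wildtype replicate 2. The number called higher was 1 without P81S replicates 1 and 2, 1 without P81S replicates 3 and 4, and 0 to 3 without single arrays, with 0 without wildtype replicate 3. Against R167Q, 14 were lower with array weights and 4 to 12 without single arrays, lowest without R167Q replicate 3, and 1 was higher with chromosome median centring and 1 without P81S replicates 1 and 2. Over all genes, calls between P81S and wildtype numbered 6530 in the main fit, 5073 to 6953 without single arrays and 8669 with array weights. Between P81S and R167Q they numbered 4234 in the main fit, 2328 to 4916 without single arrays and 5960 with array weights. Without P81S replicates 3 and 4 there were 2419 calls between P81S and R167Q. Calls between R167Q and wildtype numbered 17, and were 10 with chromosome median centring, 11 with genes under the 25th percentile left out, 28 with all probe sets tested, 26 with only the compared groups, 42 with array weights and 5 to 21 without single arrays. With the replicate number as a block, 12 of the 36 genes were lower and 2 higher in P81S than in wildtype, and 8 lower than in R167Q. The causes of these shifts were not tested. Sign changes in differences that passed in neither fit were not counted as reversals. The subtraction of the chromosome shift of brighter genes was chosen after seeing the data. Arrays are few, and signal over background of single probe sets is unknown; the means of Isg15, Mx1 and Mx2, and the P81S mean of Oas1a, lay under the 25th percentile of gene means.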
